A study of Mus musculus with 4 samples.

Results

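The amino acid transporter genes of the solute carrier families SLC1, SLC3, SLC7, SLC36, SLC38 and SLC43 were followed in mouse embryonic stem cells that had lost Exosc3, a cap component of the RNA exosome, the complex that trims and degrades RNA from its 3′ end. Members were taken by symbol alone: every row named for 1 of the 6 families was kept except 2 symbols that are not analysed here. This gave 33 genes of the 22883 rows in the table, with 1 row per symbol, of which 20 had a mean of at least 0.5 FPKM over the 4 libraries and were tested. FPKM, fragments scaled to the length of the gene model and to the library total, is a level per length relative to that total. Comparisons between libraries therefore depend on the scaling, and results with other scalings are given below. Another 7 symbols of these families, Slc1a2, Slc3a1, Slc7a7, Slc7a10, Slc7a14, Slc7a15 and Slc36a3, had no row and are not analysed here.

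The Exosc3-depleted cells were Exosc3 CKO (conditional knockout) mESCs grown without doxycycline for 3 days (2 libraries), and the Exosc3-present cells were the same cells kept in 0.1 µg/ml doxycycline (2 libraries). Both groups come from clones of the V6.5 line, were grown without feeders and carry the Exosc3 CKO genotype, so doxycycline and Exosc3 changed together and their parts cannot be told apart. Total RNA was depleted of ribosomal RNA and sequenced as stranded paired-end libraries. Nothing in the labels states that the replicates came from separate cultures or clones, so the p-values reflect the spread among these 4 libraries alone, which may be technical.

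Cells take up amino acids through transporters that differ in substrate, ion coupling and location. SLC1 members carry glutamate or small neutral amino acids with sodium. SLC7 members carry cationic amino acids alone or large neutral ones as light chains bound to an SLC3 heavy chain. SLC38 members take up glutamine and other neutral amino acids with sodium or move them across lysosomal membranes. Some SLC36 members couple transport to protons, and SLC43 members other than Slc43a3 carry large neutral amino acids without an ion. Several of these genes are known targets of ATF4, the transcription factor that is made when amino acids run short and the kinase GCN2 is active.

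The label of the depleted gene held in every library. Exosc3 had 0.635 and 0.691 FPKM in Exosc3-depleted libraries, against 24.2 and 23.2 FPKM in Exosc3-present libraries (log2 -4.38, limma adjusted p = 0.000129). The library totals recovered from the spacing of the values were 38095698 and 41968325 fragments in Exosc3-depleted libraries, against 60851774 and 55233386 in Exosc3-present libraries, and 42.4% and 44.0%, against 49.7% and 51.8%, of these fragments lay in listed gene models. The median of all tested rows was at log2 -0.27, so for some genes the change relative to that median is also given. By the test described below, 30.1% of all tested rows were lower and 12.6% higher in Exosc3-depleted cells, against which the marker counts are to be read. Embryonic stem cell markers were present in both groups, with 6 of 8 tested lower in Exosc3-depleted cells and Pou5f1 at 413 and 286 FPKM, against 471 and 434 FPKM in Exosc3-present cells. The markers with a row summed to 1979 and 1327 FPKM, against 3148 and 3159 FPKM. Trophectoderm markers were higher (6 of 6 tested, sums of 145 and 110.2 FPKM, against 25.7 and 27.9), as were 6 of 8 primitive endoderm markers (sums of 87.8 and 91.1 FPKM, against 30.8 and 40.0). Most of the trophectoderm sum was Krt8, Krt18 and Krt19. Hand1 and Ascl2 were also called higher, while Cdx2, Gata3 and Elf5 were under the level tested. Most of the primitive endoderm sum was Col4a1, Col4a2 and Lama1, and Lama1 was not called (log2 0.006). Gata4, Gata6, Sox17 and Pdgfra were called higher. Of 4 tested fibroblast markers 2 were higher and 1 lower (sums of 12.0 and 9.001 FPKM, against 7.13 and 7.92). Mmp2 (9.20 and 7.15 FPKM, against 3.42 and 4.33) and Twist1 (1.47 and 0.877 FPKM, against 0.232 and 0.233) were higher. Thy1 was lower (0.151 and 0.206 FPKM, against 2.39 and 2.09), and Col1a1 was not called. Among the untested markers Dcn, Lum and Fap were at 0 in all 4 libraries. Pdgfrb, also untested, lay lower (0.107 and 0.119 FPKM, against 0.650 and 0.682), and Col1a2 and Col3a1 reached no more than 0.122 FPKM. The part of these marker shifts in the transporter values below was not tested. In bulk RNA, fewer cells of a type and less RNA per cell cannot be told apart.

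Relative to the library total, Exosc3-depleted cells held less transporter RNA in SLC1, SLC3 and SLC7 in both libraries. By the same measure SLC43 was higher, and SLC36 and SLC38 overlapped between groups. The 33 genes together summed to 154 and 169 FPKM in Exosc3-depleted libraries, against 320.0 and 336 FPKM in Exosc3-present libraries, so the mean sum was 2.03-fold lower. Of the 20 tested genes 12 were lower and 1 was higher (limma with an intensity trend on log2(FPKM + 0.5), Benjamini-Hochberg adjusted p under 0.05 over all 9336 tested rows). Of all tested rows 30.1% were lower and 12.6% higher by the same rule. Slc38a5 and Slc43a3, both among those lower, were under 0.5 FPKM in both Exosc3-depleted libraries. They met the filter through the Exosc3-present libraries alone. The median of the 20 transporters was log2 -0.84, beside -0.27 over all tested rows. In 14 of the 20 both Exosc3-depleted libraries lay under both Exosc3-present libraries, and in 2 they lay above, as did 50.9% and 22.2% of all tested rows. On the log2 scale 15 of the 20 were below 0, as were 66.6% of all tested rows.

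These counts depend on the scaling and on single libraries, and so does the background. With median-of-ratios scaling 9 transporters were lower and 2 higher (17.0% and 18.8% of all rows), and with quantile normalization 10 and 1 (19.1% and 16.9%). With scaling to fragments within listed gene models 11 were lower and 1 higher (19.6% and 16.2% of all rows), and with scaling without the 50 highest rows 7 and 1 (14.2% and 16.5%). A limma-voom test on the recovered fragments gave 11 and 1 (19.5% and 16.8%). In each of these 5 the share of transporters called lower was above that of all rows, while the split of all rows between lower and higher came near to even.

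Leaving out a library also moved the counts. Such a fit takes its spread from the pair of the other group. Over tested rows the SD of the log2 difference was 0.43 in the Exosc3-depleted pair and 0.19 in the Exosc3-present pair. The counts are therefore not directly comparable with those of the full fit. Without Exosc3-depleted replicate 1, 13 transporters were lower and 3 higher (40.6% and 23.4% of all rows), and without Exosc3-depleted replicate 2, 13 and 1 (50.5% and 17.3%). Without Exosc3-present replicate 1, 9 were lower and 1 higher (14.6% and 7.19% of all rows), and without Exosc3-present replicate 2, 8 and 1 (11.6% and 7.16%). With no filter on low values 30 transporters entered the test, of which 11 were lower and 2 higher (18.7% and 11.3% of all rows).

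**Figure D1:**
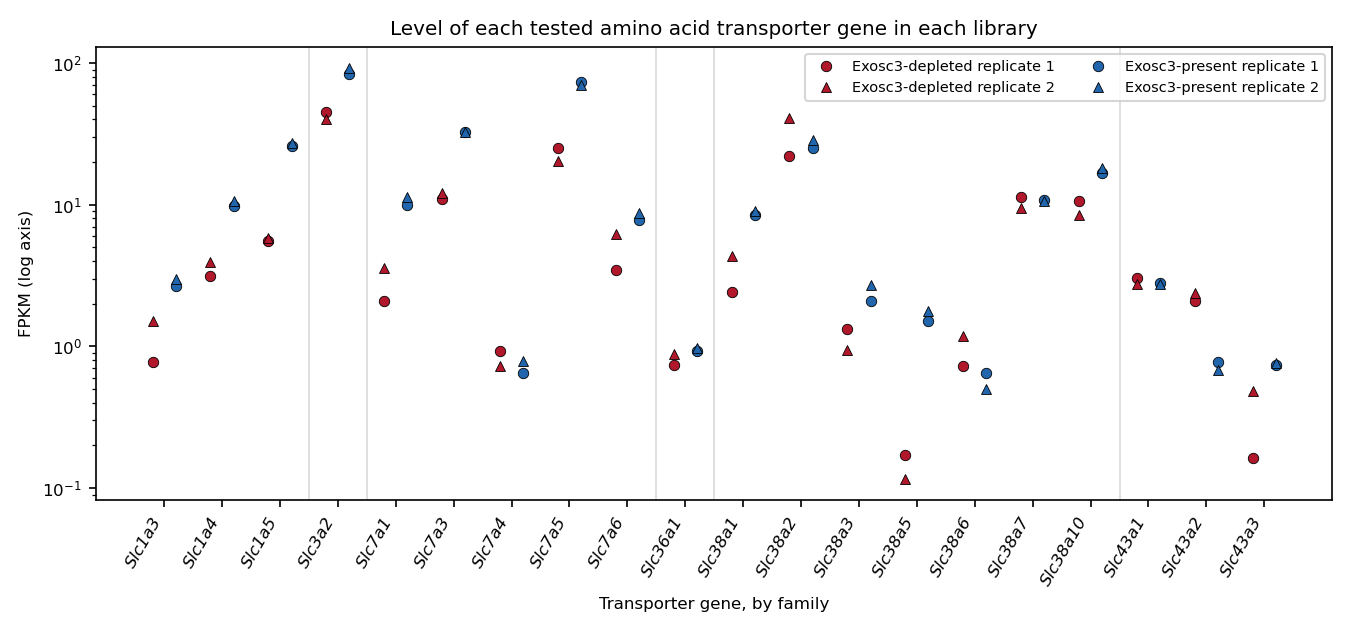
FPKM of each of the 20 tested transporter genes in the 4 libraries, on a log axis, grouped by family (grey lines part the families); red marks are the Exosc3-depleted libraries and blue marks the Exosc3-present ones, with circles for replicate 1 and triangles for replicate 2. The red marks lie below the blue ones in 14 genes and above them in Slc43a2 and Slc38a6.

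The makeup of the transporter pool shifted with its size. SLC1 genes held 6.64% and 6.96% of the summed transporter FPKM in Exosc3-depleted libraries, against 12.2% and 12.4% in Exosc3-present libraries. SLC7 genes held 28.1% and 25.9%, against 39.2% and 36.9%, whereas SLC38 genes held 32.0% and 39.1%, against 20.6% and 21.4%. Both replicates of each group lay on the same side in these 3 families. The SLC38 sum itself overlapped between groups (49.3 and 66.3 FPKM, against 65.9 and 71.8), and 0 SLC38 genes were called higher. Slc38a2, its most abundant gene in every library, had 22.1 and 41.2 FPKM, against 25.0 and 28.5. The share of SLC3, which rests on Slc3a2 alone, overlapped between groups (29.3% and 23.9%, against 26.4% and 27.7%). SLC43 rose in share to 3.43% and 3.33% in Exosc3-depleted libraries, against 1.34% and 1.25% in Exosc3-present libraries, and SLC36 was under 1% in all libraries. These shares are taken within a library, so no rescaling of whole libraries changes them. They were not tested, since with 2 libraries a group an exact two-sided permutation test cannot give a p below 0.333.

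**Figure D2:**
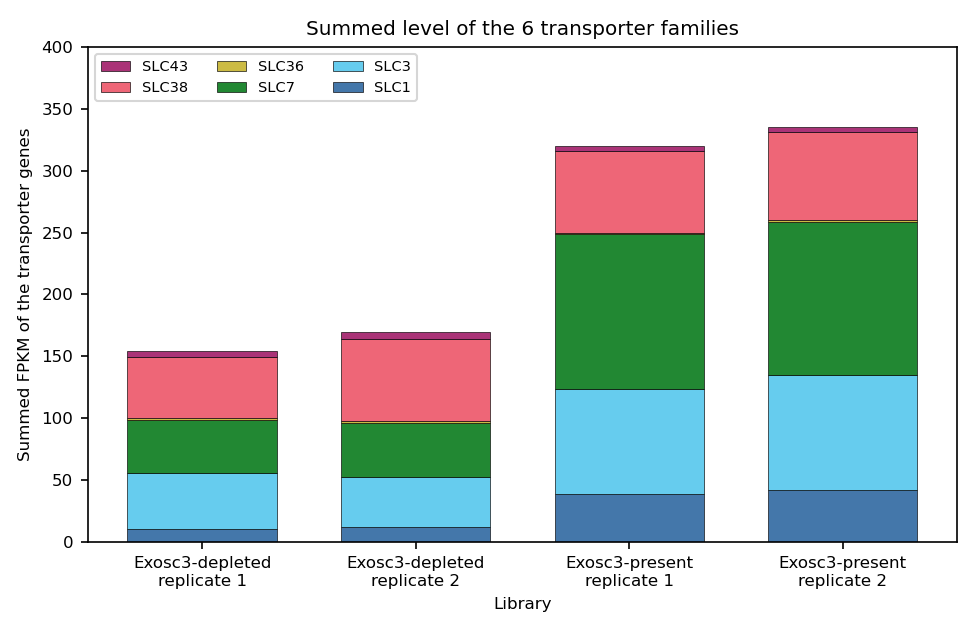
Summed FPKM of the transporter genes in each library, stacked by family, with the Exosc3-depleted libraries on the left and the Exosc3-present libraries on the right. The total was 154 and 169 FPKM in Exosc3-depleted libraries, against 320.0 and 336 in Exosc3-present libraries, and the SLC38 layer differed least in height among the larger families.

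Within SLC1, both neutral amino acid exchangers fell. Slc1a5 (uc009fib.1), the glutamine and small neutral amino acid exchanger ASCT2, had 5.58 and 5.86 FPKM (586 and 678 fragments) in Exosc3-depleted libraries, against 25.8 and 27.4 FPKM (4330 and 4171 fragments) in Exosc3-present libraries. The groups lay far apart and their replicates close together. Slc1a5 fell 4.65-fold, with log2 -2.12 (SE 0.17, limma adjusted p = 0.000346), or 1.85 below the median row. Slc1a4 (uc007idb.2), the related alanine, serine and cysteine exchanger ASCT1, had 3.16 and 3.91 FPKM, against 9.73 and 10.6 FPKM in Exosc3-present libraries. It fell 2.88-fold (log2 -1.41, SE 0.19, limma adjusted p = 0.00189). Within a library Slc1a5 was 1.76 and 1.496 times Slc1a4 in Exosc3-depleted cells, against 2.65 and 2.57 times in Exosc3-present cells, so the balance between these exchangers shifted towards Slc1a4.

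Among the glutamate carriers of SLC1, Slc1a3 (uc007vey.2), known as the glial carrier GLAST, was the member with enough signal to test. It had 0.774 and 1.501 FPKM in Exosc3-depleted libraries, against 2.67 and 2.97 FPKM in Exosc3-present libraries (log2 -1.05, SE 0.25, limma adjusted p = 0.0140). The Exosc3-depleted libraries differed 1.94-fold from each other, and the call ended without Exosc3-present replicate 2 (adjusted p = 0.0614) and with scaling without the 50 highest rows (adjusted p = 0.0910). Slc1a1, the neuronal and epithelial glutamate carrier EAAC1, was under the level tested, at 0.227 and 0.276 FPKM, against 0.492 and 0.474 FPKM, and with no filter on low values it was called lower (log2 -0.39, limma adjusted p = 0.0330). Slc1a6 overlapped between groups (0.503 and 0.228 FPKM, against 0.244 and 0.277), and Slc1a7 reached no more than 9 fragments in a library.

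Slc3a2 (uc008gmi.2) was the most abundant transporter gene in each of the 4 libraries except Exosc3-depleted replicate 2, where Slc38a2 was slightly higher. It encodes the CD98 heavy chain, a membrane-spanning glycoprotein that carries no amino acid itself and brings its SLC7 light chains to the cell surface. It had 45.1 and 40.5 FPKM (4837 and 4784 fragments) in Exosc3-depleted libraries, against 84.4 and 92.9 FPKM (14443 and 14439 fragments) in Exosc3-present libraries. The fall was 2.07-fold (log2 -1.04, SE 0.17, limma adjusted p = 0.00320), or 0.77 below the median row on the log2 scale. Slc7a5 (uc009nsc.2), the light chain LAT1 that imports leucine and other large neutral amino acids in exchange for glutamine, had 25.3 and 20.3 FPKM, against 73.6 and 70.1 FPKM. It fell 3.15-fold (log2 -1.64, SE 0.18, limma adjusted p = 0.000861). The groups of both genes were well separated.

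Slc3a2 exceeded Slc7a5 by more in Exosc3-depleted cells. Within a library Slc3a2 was 1.79 and 1.996 times Slc7a5 in Exosc3-depleted cells, against 1.15 and 1.32 times in Exosc3-present cells. Over the sum of its light chains Slc7a5, Slc7a6 and Slc7a8, most of it Slc7a5, the ratio was 1.55 and 1.51, against 1.04 and 1.18. Slc7a6 (uc009nfm.1), the y+LAT2 light chain that exports cationic amino acids for neutral ones, had 3.48 and 6.20 FPKM, against 7.85 and 8.69 FPKM. Its groups did not overlap but its call just missed the threshold (log2 -0.76, 95% interval -1.40 to -0.12, limma adjusted p = 0.0578), and it passed without either Exosc3-depleted replicate (adjusted p = 0.0348 without replicate 1 and 4.38e-05 without replicate 2). Slc7a8, the light chain LAT2, went the other way at a very low level, with 0.299 and 0.272 FPKM (46 and 46 fragments), against 0.0693 and 0.130 FPKM (17 and 29 fragments). With no filter on low values Slc7a8 was called higher (log2 0.39, limma adjusted p = 0.02002). Slc7a9, a light chain of the other SLC3 heavy chain, was at no more than 0.0906 FPKM, and Slc7a12 and Slc7a13 were listed at 0 in all 4 libraries.

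Of the 3 tested genes of the cationic amino acid transporter group of SLC7 2 were lower and 0 higher. Over all tested rows 30.1% were lower and 12.6% higher, and so few genes give no result about the group. Slc7a3 (uc009twt.1), the arginine and lysine carrier CAT3, had 10.9 and 12.2 FPKM in Exosc3-depleted libraries, against 32.7 and 32.5 FPKM in Exosc3-present libraries (log2 -1.46, SE 0.17, limma adjusted p = 0.00105). Slc7a1 (uc009aos.2), the widely expressed CAT1, had 2.10 and 3.60 FPKM, against 10.003 and 11.3 FPKM (log2 -1.77, SE 0.25, limma adjusted p = 0.00221). They fell 2.82-fold and 3.73-fold, and Slc7a3 stayed the more abundant of the pair in every library. The Exosc3-depleted libraries differed 1.71-fold in Slc7a1 and 1.11-fold in Slc7a3. Slc7a2, the carrier CAT2, lay under the level tested with overlapping groups (0.333 and 0.550 FPKM, against 0.445 and 0.389). Slc7a4, a relative with no established transport activity, had 0.926 and 0.723 FPKM, against 0.651 and 0.790 FPKM (log2 0.12, 95% interval -0.28 to 0.51, limma adjusted p = 0.610).

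**Figure D3:**
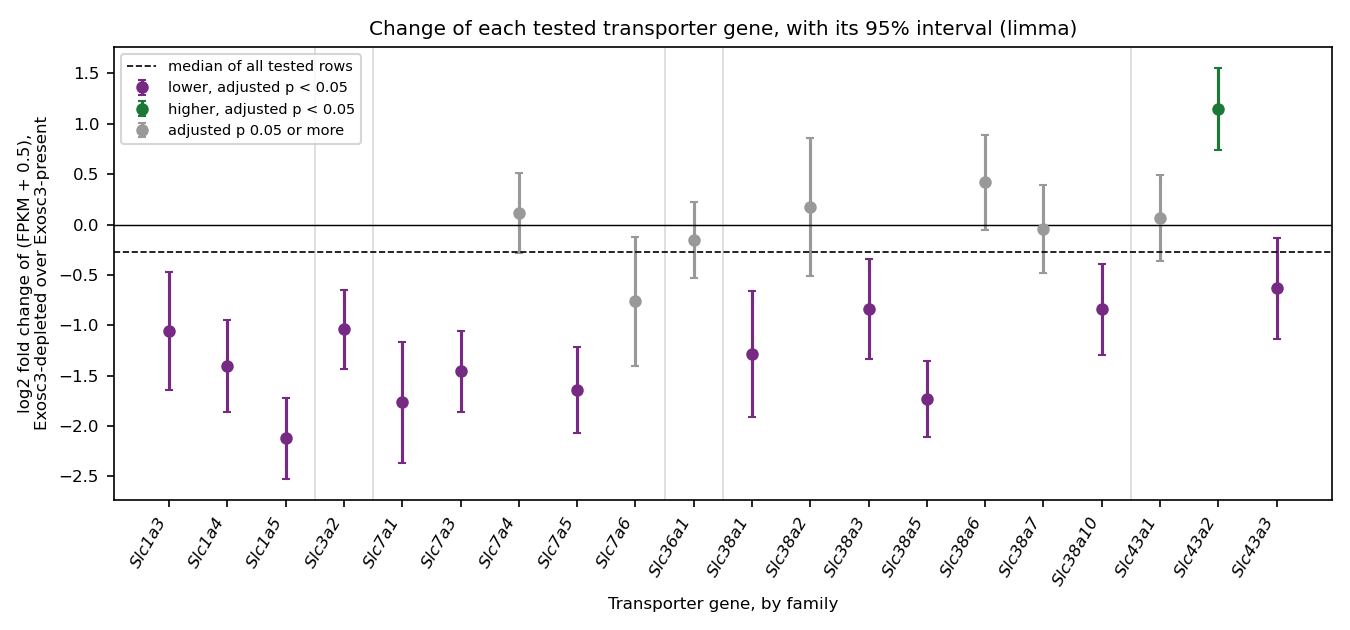
Log2 fold change of FPKM + 0.5 in Exosc3-depleted over Exosc3-present cells for the 20 tested transporter genes, with 95% intervals from limma; purple points were called lower, the green point higher and grey points not called, and the dashed line marks the median of all tested rows at log2 -0.27. On this scale calls run from log2 -2.12 for Slc1a5 to 1.15 for Slc43a2, and the intervals of Slc38a2 and Slc7a6 are the widest among the grey points.

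Of the 7 tested SLC38 genes 4 were lower and 0 higher, where 30.1% of all tested rows were lower and 12.6% higher. Among the system A carriers, which import alanine, serine and glutamine, Slc38a1 (uc007xki.2, SNAT1) had 2.44 and 4.34 FPKM in Exosc3-depleted libraries, against 8.41 and 8.96 FPKM in Exosc3-present libraries (log2 -1.28, SE 0.26, limma adjusted p = 0.00828). This call ended with scaling without the 50 highest rows (adjusted p = 0.0617). Slc38a2 (uc007xkm.1, SNAT2), the member known to be induced when amino acids are withdrawn, had 22.1 and 41.2 FPKM (3903 and 7997 fragments), against 25.0 and 28.5 FPKM (7054 and 7284 fragments). The Exosc3-depleted libraries lay on either side of the Exosc3-present ones, and no change was called (log2 0.17, 95% interval -0.51 to 0.86, limma adjusted p = 0.655). Without Exosc3-depleted replicate 1 Slc38a2 was at log2 0.61, and without Exosc3-depleted replicate 2 its sign turned (log2 -0.27). Although the Exosc3-depleted replicates differed 1.78-fold in Slc38a1 and 1.86-fold in Slc38a2, the ratio of Slc38a1 to Slc38a2 was 0.110 and 0.105 in Exosc3-depleted libraries, against 0.336 and 0.314 in Exosc3-present libraries. Slc1a5 stood at 0.252 and 0.142 times Slc38a2, against 1.03 and 0.961 times, so Slc38a2 lay well above Slc1a5 in both Exosc3-depleted libraries and near it in both Exosc3-present libraries.

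Both system N carriers, which carry glutamine, asparagine and histidine with sodium in exchange for protons, were lower. Slc38a5 (uc009sos.1, SNAT5) had 0.170 and 0.116 FPKM (12 and 9 fragments) in Exosc3-depleted libraries, against 1.51 and 1.77 FPKM (170 and 181 fragments) in Exosc3-present libraries. As a ratio of mean FPKM this was the largest fall of any tested transporter, 11.5-fold, although its log2 fold change on the scale of FPKM + 0.5 was -1.73 (SE 0.16, limma adjusted p = 0.000486), because the added 0.5 FPKM shrinks the change of a gene at this level. With a pseudocount of 0.1 FPKM it was -2.84. Slc38a5 reached the level tested only through the Exosc3-present libraries, so its fall is not independent of that filter. Slc38a3 (uc009rmp.1, SNAT3) had 1.32 and 0.937 FPKM, against 2.09 and 2.72 FPKM (log2 -0.84, SE 0.21, limma adjusted p = 0.0179). The call of Slc38a3 ended without Exosc3-present replicate 1 (adjusted p = 0.0528), without Exosc3-present replicate 2 (0.228), with no filter on low values (0.0514) and under 3 of the 4 other scalings (0.0585 to 0.0860).

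Of the 3 other tested SLC38 members 1 was lower, near the 30.1% of all tested rows, so this count is not a result about these members. Slc38a10 (uc007mrx.2) had 10.7 and 8.47 FPKM, against 16.8 and 18.1 FPKM in Exosc3-present libraries, and was called lower (log2 -0.84, SE 0.19, limma adjusted p = 0.0122). That call ended without Exosc3-present replicate 1 (adjusted p = 0.103), without Exosc3-present replicate 2 (0.174) and under 3 of the 4 other scalings (0.0649 to 0.0981). Slc38a7 (uc009mzg.1, SNAT7), which exports glutamine from lysosomes, had 11.4 and 9.45 FPKM, against 10.8 and 10.6 FPKM. It was not called (log2 -0.04, 95% interval -0.48 to 0.39, limma adjusted p = 0.870), and its sign turned under all 4 other scalings. Slc38a6 had 0.729 and 1.18 FPKM, against 0.653 and 0.503 FPKM (log2 0.42, limma adjusted p = 0.134). It was called higher with median-of-ratios scaling (limma adjusted p = 0.0310) and was at log2 0.64 without Exosc3-depleted replicate 1. Slc38a9, the lysosomal arginine sensor of the mTORC1 pathway, was under the level tested at 0.336 and 0.569 FPKM, against 0.404 and 0.420 FPKM. Slc38a8 was at no more than 0.166 FPKM and Slc38a11 was listed at 0 in all 4 libraries.

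SLC43 held the transporter that rose. Slc43a2 (uc007kec.2), the facilitated leucine and phenylalanine carrier LAT4, had 2.08 and 2.38 FPKM (547 and 689 fragments) in Exosc3-depleted libraries, against 0.775 and 0.686 FPKM (325 and 261 fragments) in Exosc3-present libraries. The groups did not overlap and the ratio of means was 3.06 (log2 1.15, SE 0.17, limma adjusted p = 0.00260). Its relative Slc43a1 (uc008kjl.1, LAT3) had 3.05 and 2.78 FPKM, against 2.79 and 2.74 FPKM (log2 0.06, 95% interval -0.36 to 0.49, limma adjusted p = 0.796). The ratio of Slc43a2 to Slc43a1 was 0.683 and 0.857, against 0.278 and 0.250. Slc43a3 (uc008kjn.1), which carries purine nucleobases and not amino acids, had 0.162 and 0.487 FPKM (16 and 53 fragments), against 0.742 and 0.769 FPKM (117 and 110 fragments). It passed narrowly (log2 -0.63, SE 0.21, limma adjusted p = 0.0467) and lost its call under 10 of 17 alternatives, among them those without Exosc3-present replicate 1 (adjusted p = 0.0958) and without Exosc3-present replicate 2 (0.132). Slc36a1 (uc007izd.1), the lysosomal proton-coupled carrier PAT1, had 0.737 and 0.881 FPKM, against 0.932 and 0.975 FPKM (log2 -0.15, 95% interval -0.53 to 0.23, limma adjusted p = 0.476), with its sign turned under 2 other scalings. Slc36a2 and Slc36a4 reached no more than 0.394 FPKM. In the GENCODE M21 annotation exons of Slc43a2, Slc38a10 and Slc7a4 overlap genes on the opposite strand (Gm45606, Gm11769 and P2rx6), and whether fragments were counted by strand is not given in the sources used here.

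The Exosc3-depleted libraries differed from each other more than the Exosc3-present libraries did. Of the 20 tested transporters 7 differed by more than 1.5-fold between the Exosc3-depleted libraries and 0 between the Exosc3-present libraries. Over all 9336 tested rows these numbers were 2632 and 290. Slc1a3, Slc7a1, Slc7a6, Slc38a1, Slc38a2, Slc38a6 and Slc43a3 were the 7, and each was higher in Exosc3-depleted replicate 2. Slc1a4, Slc1a5, Slc3a2, Slc7a1, Slc7a3, Slc7a5 and Slc38a5 were called lower under every alternative they were tested in, 17 for Slc38a5 and 18 for the others. Slc43a2 was called higher in all 17 of its own. How many of all tested rows held a call in every alternative was not computed, so this is not a trait shown to be particular to transporters. Several alternatives also differ little from the main fit.

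**Figure D4:**
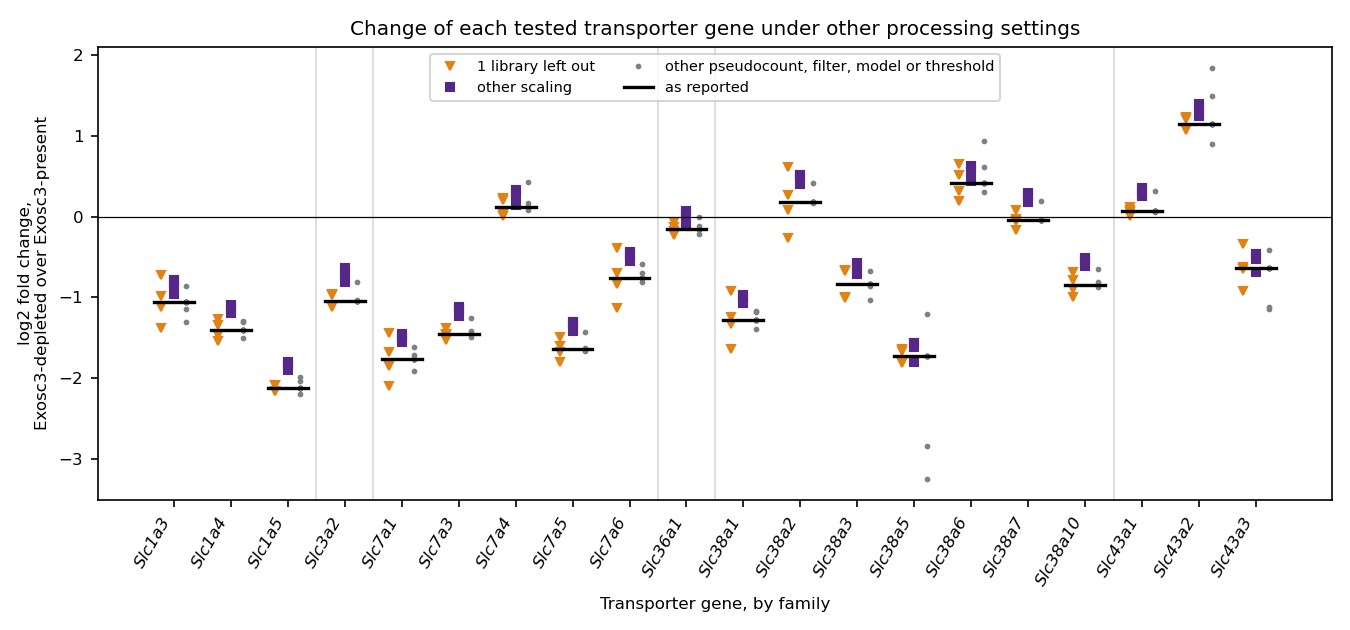
Log2 fold change of each tested transporter gene, Exosc3-depleted over Exosc3-present, as reported (black bars) and with 1 library left out (orange), with another scaling (purple) or with another pseudocount, filter, variance model or threshold (grey). Slc1a5 stayed between -2.20 and -1.80 and Slc7a5 between -1.80 and -1.31, whereas Slc38a2 ran from -0.27 to 0.61 and Slc38a5 from -3.25 to -1.21.

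A set of 7 of the transporters is known to be induced by ATF4 or by amino acid limitation in mammalian cells, namely Slc1a4, Slc1a5, Slc3a2, Slc7a1, Slc7a3, Slc7a5 and Slc38a2. Of these 7 tested genes 6 were lower and 0 higher, where 30.1% of all tested rows were lower, and the exception was Slc38a2. The set was chosen with earlier results of these data known. Its genes are already counted among the tested transporters above, so its count is not separate support. Their median was log2 -1.46, beside -0.27 over all tested rows, and their summed level was 114 and 128 FPKM in Exosc3-depleted libraries, against 261 and 273 FPKM in Exosc3-present libraries. Of 11 tested genes of the GCN2 branch that signals amino acid shortage 5 were lower and 0 higher. Over all tested rows 30.1% were lower and 12.6% higher. The median of the branch was log2 -0.34, near the -0.27 of all tested rows. Cebpb, Ppp1r15a, Eif2s1, Cebpg, Gcn1l1 and Impact were not called, so the genes named next are single values and not a result about the branch. Asns, which makes asparagine, had 67.6 and 79.1 FPKM, against 278 and 319.7 FPKM (log2 -2.02, limma adjusted p = 0.000388), and Trib3, a feedback inhibitor of ATF4, had 5.38 and 4.36 FPKM, against 21.3 and 19.7 FPKM (log2 -1.97, adjusted p = 0.000546). Atf4 itself had 45.4 and 50.2 FPKM, against 123 and 133 FPKM (log2 -1.41, adjusted p = 0.00102), and the GCN2 gene Eif2ak4 had 1.22 and 2.44 FPKM, against 3.38 and 4.15 FPKM (log2 -0.92, adjusted p = 0.0360).

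Promoter windows from RefSeq (GRCm38.p6, 250 bases before to 50 after each annotated start) were searched for the core of the amino acid response element. This core, TGATGNAA or its reverse complement TTNCATCA, is known to be bound by ATF4 with C/EBP partners. A part of ATF4 in the changes above was not tested. The core was the only motif searched, on both strands. Of the 33 transporters 22 had a window, and 1 (4.55%), Slc1a4, held a match, near the 4.51% of all 27025 symbols with a window. Of the 12 transporters called lower 6 had a window. Among the 11 tested GCN2 branch genes 8 had a window and 2, Asns and Trib3, held a match. Slc1a5, Slc7a3 and Slc7a5 were among the 11 with no entry. The stretches below are the 3 windows of ATF4-linked transporters that were called lower, with Asns for comparison. Each is printed from 250 bases upstream, 5′ to 3′ on the gene's own strand, and capitals mark the match. Slc1a4 is at chr11:20332710-20332963, Slc3a2 at chr19:8713898-8714147, Slc7a1 at chr5:148399905-148400154 and Asns at chr6:7693210-7693459, all on the minus strand of GRCm38.p6. The Slc1a4 match TTGCATCA begins 4 bases upstream of the annotated start and crosses it, and the Asns match TGATGAAA begins 23 bases upstream. No match in Slc3a2 and Slc7a1 says only that these letters are not in these windows.
Slc1a4: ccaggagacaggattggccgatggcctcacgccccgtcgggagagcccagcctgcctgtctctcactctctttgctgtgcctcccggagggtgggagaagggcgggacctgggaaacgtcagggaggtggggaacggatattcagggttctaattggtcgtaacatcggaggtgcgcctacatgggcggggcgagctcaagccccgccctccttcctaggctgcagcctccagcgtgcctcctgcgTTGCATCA
Slc3a2: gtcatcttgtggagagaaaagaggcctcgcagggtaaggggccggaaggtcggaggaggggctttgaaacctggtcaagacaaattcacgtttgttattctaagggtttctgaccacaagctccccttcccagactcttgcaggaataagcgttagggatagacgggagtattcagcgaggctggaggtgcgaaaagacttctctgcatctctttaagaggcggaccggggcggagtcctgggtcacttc
Slc7a1: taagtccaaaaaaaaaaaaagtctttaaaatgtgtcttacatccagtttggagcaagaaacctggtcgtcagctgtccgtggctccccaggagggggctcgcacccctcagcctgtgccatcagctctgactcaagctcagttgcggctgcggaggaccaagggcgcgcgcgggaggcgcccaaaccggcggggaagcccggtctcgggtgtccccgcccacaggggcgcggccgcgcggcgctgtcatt
Asns: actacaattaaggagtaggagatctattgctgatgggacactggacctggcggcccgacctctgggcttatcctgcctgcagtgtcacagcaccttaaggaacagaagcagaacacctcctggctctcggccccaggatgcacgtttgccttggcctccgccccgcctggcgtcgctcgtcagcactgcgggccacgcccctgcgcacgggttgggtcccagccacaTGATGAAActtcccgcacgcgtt

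Leucine and arginine reach the growth kinase complex mTORC1 through the GATOR, Rag and sestrin proteins. Of 21 tested genes 8 were lower and 3 higher, where 30.1% of all tested rows were lower and 12.6% higher, and their median was log2 -0.18, beside -0.27 over all tested rows. These counts lie near the shares of all rows, so the genes named next are single values and not a result about the list. Lower genes included the cytosolic arginine sensor gene Gatsl3 (6.53 and 6.26 FPKM, against 13.5 and 13.8 FPKM, log2 -1.04, limma adjusted p = 0.00380) and Depdc5, a GATOR subunit that restrains mTORC1 (2.30 and 3.73 FPKM, against 6.72 and 7.72 FPKM, log2 -1.16, adjusted p = 0.00906). Higher genes included the sestrin gene Sesn3 (5.30 and 10.5 FPKM, against 2.07 and 1.88 FPKM, log2 1.69, adjusted p = 0.00531) and Itfg2, a subunit of the KICSTOR scaffold of GATOR (14.7 and 11.9 FPKM, against 6.02 and 6.32 FPKM, log2 1.04, adjusted p = 0.00541). The leucine sensor gene Sesn2, also an ATF4 and p53 target, was higher at 47.4 and 38.4 FPKM, against 29.3 and 28.8 FPKM (log2 0.55, adjusted p = 0.0450), while Sesn1 was lower at 0.858 and 1.32 FPKM, against 2.40 and 2.79 FPKM (log2 -0.98, adjusted p = 0.01002).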

How the data were processed

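FPKM values of 4 sample columns in 1 table were deposited by the authors. Processing notes of the submitters list mm9, Bowtie2, STAR, Picard, bedtools and edgeR, with no version or role; how the FPKM values were made is not given in the sources used here. Columns were matched to samples by their titles. Every one of the 15471 rows above 0 could be written as whole fragments over a whole-base length (tolerance 0.004 fragments). The shortest length that fitted was kept, so fragment numbers could be a whole fraction of the true ones. They gave the depth and 2 alternatives, and are printed beside some FPKM values, where the same limit holds. The main test did not use them. The groups were compared in R 4.3.3 by limma 3.58.1, two-sided and without covariates, on log2(FPKM + 0.5) of the 9336 rows whose mean reached 0.5 FPKM, with a prior variance that follows intensity and Benjamini-Hochberg adjusted p under 0.05 as the threshold. This scale understates the change of low genes; N-fold values are ratios of mean FPKM. The scripts were tested on simulated data. Every tested transporter is named; of the other lists, members with the smallest p were named, and Sesn1 and Sesn2 were chosen after their values were seen. The members, families and lists were chosen with earlier results of these data known. Alternatives covered the pseudocount, filter, scaling, variance model, replicate block, threshold and each library left out; the test on fragments (limma-voom) and the scaling to fragments within listed models were chosen after seeing the data. Promoter windows and names came from RefSeq GRCm38.p6, overlaps from GENCODE M21; no coordinates were carried between builds.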

Additional observations from a re-analysis of the deposited data

How the results depend on the processing

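In all, 18 alternatives were run, giving 352 values for the 20 tested transporters. Of these, 309 kept their direction and side of the threshold, 27 lost a call, 7 gained one and 9 changed sign, all 9 in transporters that were not called. Slc36a1 was at log2 0.049 with median-of-ratios scaling and 0.067 with scaling without the 50 highest rows. With 1 library left out, Slc38a2 ran from -0.27 (without Exosc3-depleted replicate 2) to 0.61 (without Exosc3-depleted replicate 1) and Slc38a7 from -0.17 (without Exosc3-depleted replicate 1) to 0.087 (without Exosc3-depleted replicate 2). Slc38a7 was at 0.19 with limma-voom on recovered fragments, 0.26 with median-of-ratios scaling, 0.26 with quantile normalization, 0.18 with scaling to fragments within listed models and 0.29 with scaling without the 50 highest rows. The cause of these shifts was not tested. Transporters called lower numbered 12 as reported, 7 with scaling without the 50 highest rows and 8 to 13 with 1 library left out. Transporters called higher numbered 1 as reported, 0 with the filter at a mean of 2 FPKM (which left Slc43a2 out), 2 with median-of-ratios scaling, 2 with no filter on low values and 1 to 3 with 1 library left out.

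Over all tested rows 2806 were lower and 1177 higher, so 29.6% of changed rows were higher. Lower rows numbered 1821 with limma-voom on recovered fragments, 1589 with median-of-ratios scaling, 1782 with quantile normalization, 1829 with scaling to fragments within listed models, 1330 with scaling without the 50 highest rows, 1457 at a threshold of 0.01, and 1082 to 4715 with 1 library left out. Higher rows numbered 667 with the filter at a mean of 2 FPKM, 744 at a threshold of 0.01 and 668 to 2183 with 1 library left out. With the 5 scaling or fragment alternatives the share of higher rows among changed rows was 45.2% to 53.7%, and the median of all tested rows moved to between log2 -0.08 and 0.03; the transporter median then lay between -0.84 and -0.55. A fit with 1 library left out assumes that the lone sample varies like the pair of the other group.

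With the replicate number as a block 13 transporters were lower and 1 higher (37.15% and 15.33% of all rows). Slc7a6 passed (limma adjusted p = 0.00155), and no other transporter call changed. The p-values of this fit ran far below those reported (limma adjusted p for Slc1a5 3.56e-21, against 0.000346). The pass of Slc7a6 is therefore weak support. Same-numbered samples deviated together with a correlation of 0.24 over tested rows, but with 2 pairs the numbers are not shown to pair the samples. No symbol of the families had more than 1 row, so the alternative with other rows of a symbol gave no value.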

Other observations

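Amino acid and peptide transporters outside these families were also read. Of 25 listed genes 20 had a row and 9 were tested, of which 3 were lower and 1 higher, beside 30.1% lower and 12.6% higher over all tested rows. Slc15a1, a proton-coupled peptide importer of epithelia, had 0.109 and 0.397 FPKM in Exosc3-depleted libraries, against 2.28 and 2.15 FPKM in Exosc3-present libraries (log2 -1.88, limma adjusted p = 0.00102). The taurine transporter gene Slc6a6 had 3.17 and 5.13 FPKM, against 8.92 and 10.1 FPKM (log2 -1.13, limma adjusted p = 0.0102). Slc17a7, a vesicular glutamate carrier of neurons, had 0.473 and 0.365 FPKM, against 1.45 and 1.38 FPKM (log2 -1.06, limma adjusted p = 0.00266). Slc15a4, a lysosomal histidine and peptide carrier, went the other way with 9.03 and 7.76 FPKM, against 4.21 and 4.24 FPKM (log2 0.91, limma adjusted p = 0.00807).

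Among large neutral amino acid carriers of different families the balance moved widely. Slc7a5 was 12.1 and 8.52 times Slc43a2 in Exosc3-depleted libraries, against 94.96 and 102 times in Exosc3-present libraries. This pair was chosen after its values were seen and was not tested.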
